A study of Homo sapiens with 6 samples.

Results

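The mitotic kinesins are microtubule motor proteins that build the spindle, move and align chromosomes and complete the separation of daughter cells. The 10 genes described here are KIF11, KIF15, KIFC1, KIF2C, KIF18A, KIF18B, KIF4A, KIF20A, KIF23 and KIF14. They were taken by name, through Ensembl identifiers matched to GENCODE 29 symbols. No level entered that rule, but they were chosen with earlier results of these data known. They are 10 of the 58243 genes listed in the expression files, and all 10 were among the 13437 genes that were tested because they averaged 1 FPKM or more.

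The cells were CAL27, an established epithelial line derived from a human tongue squamous cell carcinoma, and their mRNA was sequenced. In both groups cells grew in DMEM with fetal bovine serum and antibiotics. For 48 h, 3 libraries' cells received phosphate-buffered saline (PBS), the vehicle, and 3 libraries' cells received 30 mM metformin, the glucose-lowering biguanide. The study holds 1 cell line, 1 dose and 1 time.

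Kinesins convert the energy of ATP into steps along microtubules, or into the removal of tubulin from microtubule ends. The mitotic members are transcribed mainly late in the cell cycle, in G2 and mitosis, so that a dividing population contains more of their mRNA than a resting one. Their products act in sequence: some separate and focus the spindle poles, some control microtubule length at kinetochores and cortex, and others organise the midzone and the bridge that is cut in cytokinesis.

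All 10 mitotic kinesins fell with metformin, to between 14.2% (KIF20A) and 52.6% (KIF18A) of their mean PBS level. In limma's moderated test with Benjamini-Hochberg adjustment over all tested genes, the adjusted p was between 2.41e-06 and 0.000195. For each of the 10, every metformin library lay below every PBS library. In the same comparison 25.2% of all tested genes were called lower and 31.0% higher, and 28.7% had every metformin library below every PBS library. A log2 change of -1 or below was called for 8 of the 10, against 4.74% of all tested genes. The members' median log2 change was -1.39, and that of all tested genes was 0.06. Levels are in FPKM (fragments per kilobase, scaled to the mapped total), so genes are compared per length. Folds are ratios of group means. Every log2 change is the metformin mean less the PBS mean of log2(FPKM + 1), and the added 1 makes it smaller for low genes than the fold. Because whole cultures were measured, fewer cells in G2 or mitosis and less of these mRNAs per cell cannot be told apart.

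**Figure D1:**
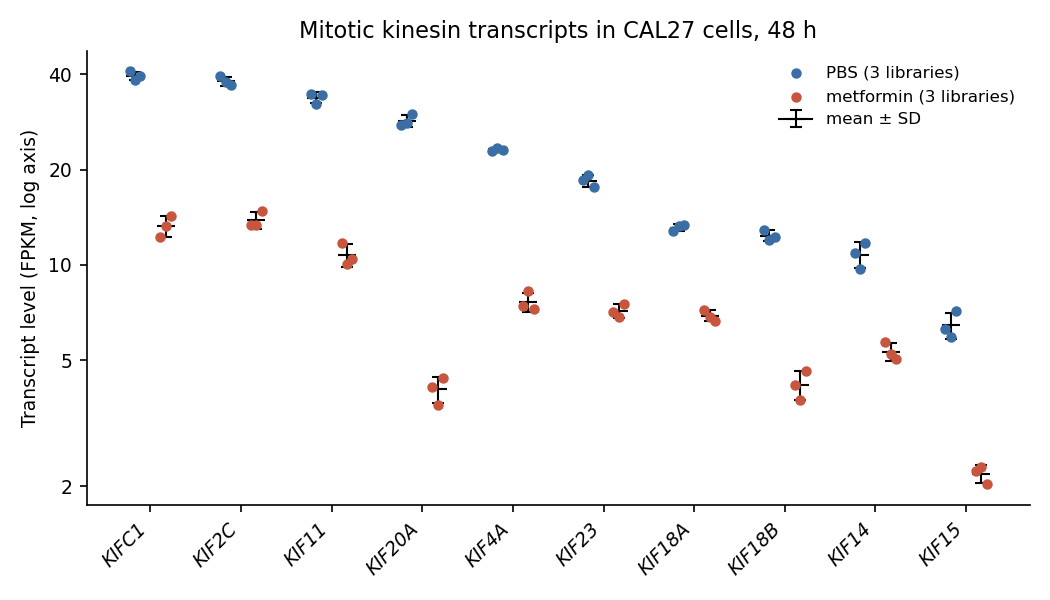
FPKM of the 10 mitotic kinesins in each PBS and metformin library, with 1 point per library and black bars for the mean ± SD of each group, on a log axis. The metformin points lie below the PBS points for every member, and KIF20A shows the widest gap (28.5 against 4.04 FPKM on average).

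Of the motors that shape spindle poles, KIF11 (Eg5), which crosslinks antiparallel microtubules and pushes the poles apart, had 34.7, 32.3 and 34.6 FPKM with PBS and 11.7, 10.1 and 10.4 FPKM with metformin. Its mean fell 3.15-fold, from 33.8 ± 1.35 to 10.8 ± 0.871 FPKM (SD, n = 3 libraries per group here and below), with a log2 change of -1.57 (SE 0.07). KIF15, which can help to hold a bipolar spindle in place of KIF11, was the lowest of the members in both groups. It had 6.29, 5.93 and 7.14 FPKM with PBS and 2.23, 2.30 and 2.03 FPKM with metformin. It fell 2.95-fold, and its log2 change of -1.22 (SE 0.09) was damped by the added pseudocount, since at a pseudocount of 0.01 the change was -1.55. KIFC1, a minus-end-directed motor that focuses poles and gathers extra centrosomes, was among the highest members. Its level was 40.9, 38.5 and 39.5 FPKM with PBS and 12.3, 13.2 and 14.2 FPKM with metformin. The 2.99-fold fall of KIFC1 (log2 change -1.51, SE 0.07) was close in size to those of KIF11 and KIF15. Relative to the mean, the tightest PBS values among these 3 genes were those of KIFC1, and each gene's groups were far apart relative to their spread.

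Among the members that act on microtubule ends, KIF2C (MCAK), a depolymerase that corrects faulty kinetochore attachments, had 39.5, 37.9 and 37.0 FPKM with PBS and 13.4, 13.4 and 14.8 FPKM with metformin. This was a 2.75-fold fall with a log2 change of -1.40 (SE 0.06). KIF18B, which works with KIF2C to limit astral microtubules, had 12.9, 12.0 and 12.2 FPKM with PBS and 4.17, 3.74 and 4.63 FPKM with metformin. The KIF18B mean fell 2.97-fold, from 12.4 ± 0.491 to 4.18 ± 0.446 FPKM, with a log2 change of -1.37 (SE 0.08). KIF18A, a relative that dampens chromosome movements at the metaphase plate, stood at a similar PBS level but fell less. Its values were 12.8, 13.2 and 13.4 FPKM with PBS and 7.20, 6.87 and 6.65 FPKM with metformin, a 1.90-fold fall (log2 change -0.84, SE 0.06). The 95% intervals of the log2 changes of KIF18A (-0.98 to -0.70) and KIF18B (-1.57 to -1.18) did not overlap. The PBS ranges of the pair overlapped, whereas every metformin value of KIF18A was above every one of KIF18B.

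KIF4A binds chromosome arms and, with PRC1, sets the length of the anaphase midzone. Its 3 PBS libraries were nearly alike at 22.9, 23.5 and 23.2 FPKM, and the metformin libraries had 7.39, 8.24 and 7.26 FPKM. KIF4A fell 3.04-fold, with a log2 change of -1.49 (SE 0.06). KIF4B, a near-identical intron-less copy between which fragments could be split, was listed at no more than 0.0146 FPKM in any library.

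KIF20A, which carries Aurora B and its complex to the midzone, had 27.6, 28.0 and 30.0 FPKM with PBS and 4.12, 3.62 and 4.39 FPKM with metformin. Its 7.06-fold fall (log2 change -2.55, SE 0.08, 95% interval -2.74 to -2.37) was the largest of the members and the 20th lowest log2 change of the 13437 tested genes. The other members ranked between 153 (KIF11) and 956 (KIF18A) in that order. KIF23, which pairs with RACGAP1 in the centralspindlin complex at the midzone, had 18.5, 19.3 and 17.7 FPKM with PBS and 7.11, 6.85 and 7.53 FPKM with metformin. KIF23 fell 2.58-fold (log2 change -1.26, SE 0.06, 95% interval -1.41 to -1.10), and its interval lay wholly above that of KIF20A. The close relatives KIF20A and KIF23 thus had separate intervals, as had KIF18A and KIF18B. KIF14, a midbody motor that recruits citron kinase for cytokinesis, had 10.9, 9.72 and 11.7 FPKM with PBS and 5.70, 5.25 and 5.03 FPKM with metformin. The 2.03-fold fall of KIF14 (log2 change -0.90, SE 0.09, limma adjusted p = 0.000195) had the largest adjusted p of the 10, and both it and KIF18A fell by less than 1 on the log2 scale.

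The order of the members changed mainly through KIF20A. With PBS the order of mean FPKM was KIFC1, KIF2C, KIF11, KIF20A, KIF4A, KIF23, KIF18A, KIF18B, KIF14 and KIF15. The library ranges of neighbours overlapped for KIFC1 with KIF2C and for KIF18A with KIF18B, and the other neighbours were separate. With metformin the order was KIF2C, KIFC1, KIF11, KIF4A, KIF23, KIF18A, KIF14, KIF18B, KIF20A and KIF15. Neighbouring ranges overlapped there for KIF2C with KIFC1, KIF4A with KIF23, KIF23 with KIF18A, and KIF18B with KIF20A. KIF20A moved from rank 4 to rank 9. The coefficient of variation between libraries was 1.18% (KIF4A) to 9.63% (KIF15) with PBS and 4.05% (KIF18A) to 10.7% (KIF18B) with metformin.

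Each member was then set against the mean of the other 9 in the same library, on the log2(FPKM + 1) scale, as a description without a test. KIF20A lay 0.53 to 0.64 above the others with PBS and, with metformin, at values from -0.78 to -0.59, a shift of -1.27. KIF18A shifted by 0.64 and KIF14 by 0.57 in the opposite direction, and KIF23 by 0.17, each with every metformin library above every PBS library. For every member but KIF20A, the other 9 include KIF20A, whose large fall lowers their metformin mean and so raises the shift. The small shift of KIF23 was not separated from this. KIF11 shifted by -0.18 with separate groups, but its groups overlapped at a pseudocount of 0.01. The groups overlapped for KIF4A, KIF15, KIF18B, KIF2C and KIFC1. Against a mean that includes KIF20A, no shift beyond the spread of the libraries was thus seen for these 5. A mean without KIF20A was not tried.

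**Figure D2:**
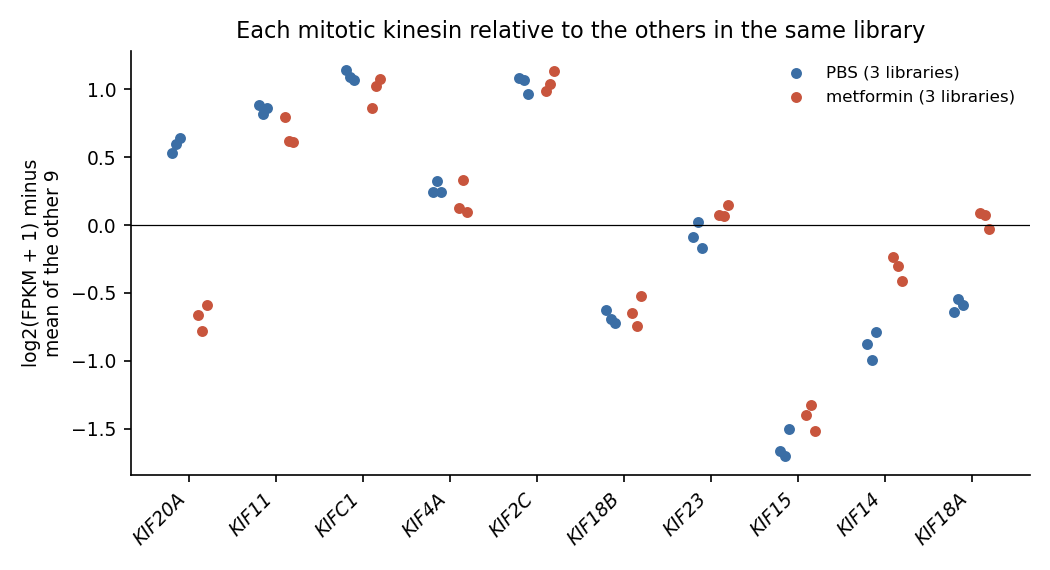
Log2(FPKM + 1) of each mitotic kinesin minus the mean of the other 9 in the same library, with 1 point per PBS or metformin library. KIF20A drops from above 0 to below 0 with metformin (a shift of -1.27), while KIF18A and KIF14 lie higher relative to the rest (shifts of 0.64 and 0.57).

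Because the members moved together, the DNA around their start sites is shown. Many genes of G2 and mitosis carry a cell cycle homology region (CHR), a short element read by the MuvB complexes (DREAM and its activating relatives), often downstream of CCAAT boxes that bind the trimeric factor NF-Y. The reference sequences were taken from RefSeq promoters (GRCh38.p14), which run from 250 bases before to 50 bases after the RefSeq gene start and matched all 10 members. They were searched on both strands for TTTGAA, the core of the CHR, and for the CCAAT box. A related form that reads the same on both strands, TTTAAA, was added after KIF20A and KIF2C had been seen to lack the first motif. No match overlapped a match of another of these motifs in the members' promoters.

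TTTGAA was found in the promoters of 8 of the 10 members, against 15.2% of 35116 promoters. Restricted to the 110 bases from 100 before to 10 after the start, it was still in 8 of the 10, against 5.18% of promoters. CCAAT was found in 8 of the 10 over 300 bases (34.6% of promoters) and in 8 of the 10 in the shorter window (18.9%). Both motifs were present in 7 members, since KIF15 had TTTGAA alone, KIF20A had CCAAT without it and KIF2C had neither. TTTAAA was in 4 of the 10 over 300 bases (12.2% of promoters), and in the shorter window in KIF20A and KIF2C only (4.31%). The member with the largest fall and the member with the smallest, KIF20A and KIF18A, thus both had CCAAT, and a match is a description of letters and not of binding. For comparison, TTTGAA was in 15 of 21 promoters of kinesin partner genes, 9 of 16 of kinetochore and checkpoint genes, 6 of 9 of condensin and topoisomerase II genes, 1 of 20 of kinesins outside cell division and 0 of 17 of dynein and dynactin genes. Among groups whose tested genes all or mostly fell, it was less frequent in tubulin promoters (2 of 13, 15.4%) and other division kinesins (2 of 6, 33.3%). Over 300 bases neither share was below the 15.2% of all promoters, and the 6 include KIF2B and KIF4B, which were not tested. In the shorter window TTTGAA was in 0 of 13 tubulin promoters and 1 of 6 of other division kinesins, against 5.18% of all promoters. Partner genes had it there in 11 of 21, kinetochore and checkpoint genes in 5 of 16, and condensin and topoisomerase II genes in 3 of 9. Of tested genes with a promoter 9.25% held TTTGAA over 300 bases, and of those called with a log2 change of -1 or below 20.5% did. In the shorter window these shares were 2.82% and 9.89%. For CCAAT they were 36.9% and 46.2% over 300 bases, and 22.6% and 34.0% in the shorter window.

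The windows of 6 members show these arrangements, 5′ to 3′ on the gene's strand, with the matches to the CHR motif, its related form and the CCAAT box in capitals. Where a motif lies on the opposite strand, its reverse complement is capitalised, which is TTCAAA for the CHR motif. For the CCAAT box it is ATTGG. Distances are from the RefSeq start, which differs from the GENCODE 29 start for some members. The windows of KIF18A, KIF20A, KIF23 and KIFC1 lie inside the GENCODE 29 spans of these genes. KIF4A (chrX:70290004-70290113, + strand) and KIF11 (chr10:92593030-92593139, + strand) have a CCAAT box upstream of the CHR motif, which begins 34 and 28 bases before the start. In KIF23 (chr15:69414249-69414358, + strand) the motifs lie closer together, at 64 and 55 bases before the start. In KIF18A (chr11:28108147-28108256, - strand) they begin 45 and 10 bases before it. KIF20A (chr5:138179012-138179121, + strand) has CCAAT boxes at 94 and 67 bases and TTTAAA at 41, and KIF2C (chr1:44739737-44739846, + strand) has TTTAAA alone, 3 bases before the start.
KIF4A: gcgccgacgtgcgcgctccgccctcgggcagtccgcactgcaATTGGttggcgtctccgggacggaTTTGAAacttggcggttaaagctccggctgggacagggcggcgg
KIF11: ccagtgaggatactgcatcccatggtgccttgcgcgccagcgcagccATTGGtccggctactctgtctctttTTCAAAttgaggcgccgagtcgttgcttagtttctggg
KIF23: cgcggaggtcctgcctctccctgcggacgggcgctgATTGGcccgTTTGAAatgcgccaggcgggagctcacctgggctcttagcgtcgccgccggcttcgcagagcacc
KIF18A: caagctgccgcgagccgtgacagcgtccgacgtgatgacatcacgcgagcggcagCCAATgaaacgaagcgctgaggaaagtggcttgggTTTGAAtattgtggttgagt
KIF20A: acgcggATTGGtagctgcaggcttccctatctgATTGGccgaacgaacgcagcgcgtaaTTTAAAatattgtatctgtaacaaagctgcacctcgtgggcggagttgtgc
KIF2C: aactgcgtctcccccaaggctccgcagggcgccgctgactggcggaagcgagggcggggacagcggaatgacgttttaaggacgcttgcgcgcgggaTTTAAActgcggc

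**Figure D3:**
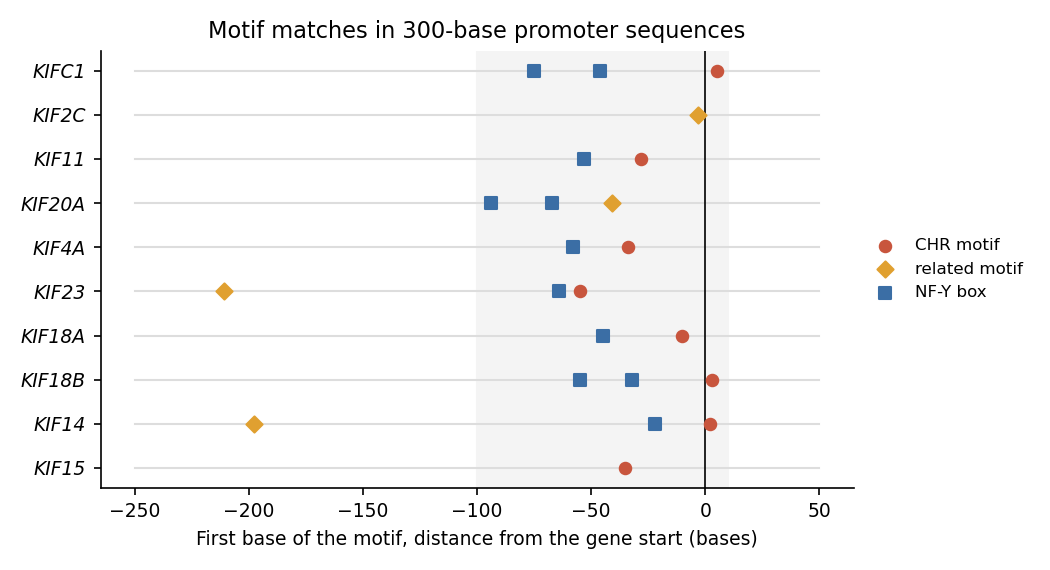
First base of each motif match in the 300-base RefSeq promoter of the 10 mitotic kinesins, ordered by PBS level, against the distance from the gene start in bases, with the CHR motif (TTTGAA), the related motif (TTTAAA) and the NF-Y box (CCAAT) marked. The shaded band is the window from 100 bases before to 10 after the start; it holds a CHR motif in 8 of the 10 genes.

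The other tested kinesins of cell division fell as well, whereas 1 of the 15 tested kinesins with other roles fell. Of 6 further division kinesins 4 were tested and all 4 fell, with a median log2 change of -1.05. CENPE, which carries chromosomes to the metaphase plate, fell 3.76-fold, from 7.94 ± 0.186 to 2.11 ± 0.0949 FPKM. KIF20B, a relative of KIF20A and KIF23 in cytokinesis, fell 2.44-fold, the chromosome-arm motor KIF22 fell 1.95-fold and the depolymerase KIF2A fell 1.48-fold (limma adjusted p = 0.00947). Of 28 kinesins with other roles, mainly in transport and cilia, 15 were tested. Among them 7 rose, 1 fell and 7 were not called, with a median log2 change of 0.01. KIF27 rose from 1.53 to 3.81 FPKM, KIFC3 from 7.13 ± 0.245 to 12.3 ± 0.509 FPKM, and KIF13A from 5.79 to 8.35 FPKM. KIFC2 rose with a log2 change of 0.43, and KIF13B and KIF21A had log2 changes of 0.01 that were not called. The conventional transport kinesin gene KIF5B, chosen after its values were seen, rose from 25.4 to 27.6 FPKM across PBS libraries to 33.4 to 33.9 FPKM across metformin libraries. The 1 that fell, KIF24, also chosen after its values were seen (log2 change -0.29, limma adjusted p = 0.0165), lost the call without PBS replicate 3 (adjusted p = 0.0551) or metformin replicate 3 (adjusted p = 0.0517). In the other direction KIF1B, chosen likewise, was not called (log2 change -0.24, adjusted p = 0.0640), although every metformin library lay below every PBS library, and it was called lower by limma without PBS replicate 2 (-0.33, adjusted p = 0.0128).

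The 10 members summed to 227, 220.3 and 226 FPKM with PBS and to 75.3, 73.6 and 77.0 FPKM with metformin. The 28 kinesins with other roles summed to 105, 98.4 and 104 FPKM with PBS and 126, 125 and 132 FPKM with metformin. The members' share of all listed kinesin FPKM was 57.3%, 58.0% and 57.3% with PBS and 32.6%, 31.9% and 32.4% with metformin. The mitotic kinesins thus made up most of the summed kinesin FPKM in each PBS library, and less than the kinesins with other roles in each metformin library.

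**Figure D4:**
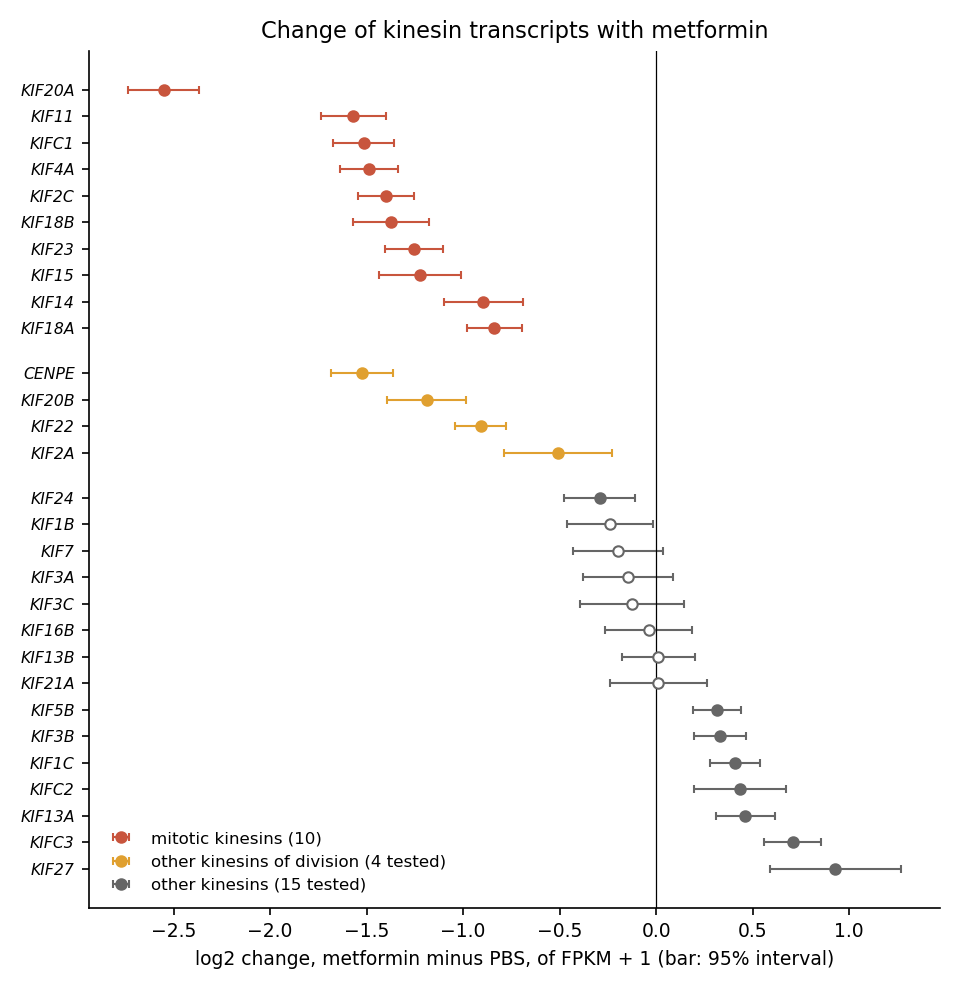
Log2 change (metformin minus PBS, on FPKM + 1) of the 29 tested kinesins with its 95% interval, grouped as mitotic kinesins, other kinesins of division and other kinesins. Filled points passed limma's adjusted threshold of 0.05 and open points did not; the 10 mitotic members lie between -2.55 and -0.84, and the other kinesins between -0.29 and 0.93.

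Of 26 partner genes 24 fell, 16 of them by at least 1 on the log2 scale, with a median log2 change of -1.11. The largest falls were those of DLGAP5, which stabilises spindle fibres (6.20-fold, 28.1 to 4.53 FPKM), the mitotic kinase gene PLK1 (5.58-fold, 27.0 to 4.83 FPKM), the spindle protein gene HMMR (4.84-fold) and GTSE1, an inhibitor of KIF2C (4.15-fold). The microtubule-binding genes CLASP1 (log2 change 0.15) and CLASP2 (-0.03) were not called. NUMA1 (-0.40), chosen after its values were seen, lost its limma call without PBS replicate 3 or metformin replicate 1 or 2 (adjusted p = 0.0551 to 0.0745). Direct partners of single members, chosen after their values were seen, were PRC1 (3.51-fold lower), the partner of KIF4A, RACGAP1 (2.69-fold), that of KIF23, CIT (2.86-fold), that of KIF14, and AURKB (2.25-fold), the cargo of KIF20A.

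At the chromosomes on which the members act, of 20 kinetochore and checkpoint genes 17 fell, with a median log2 change of -1.11, led by SPC25 (-1.80), CENPF (-1.56), NDC80 (-1.54) and TTK (-1.42). MIS12 (-0.10) and MAD1L1 (-0.18) were not called. All 10 condensin and topoisomerase II genes fell, with a median of -1.18, among them NCAPD2 (-1.81), TOP2A (-1.74), NCAPG (-1.58) and NCAPG2 (-1.37), and less so SMC4 (-0.72) and TOP2B (-0.37). The tracks on which the motors walk were lower as well, since 9 of 11 tested tubulin genes fell with a median log2 change of -1.08. TUBB fell 5.09-fold, from 434 to 85.3 FPKM, TUBA1B from 292 ± 81.0 to 73.7 ± 17.4 FPKM, TUBB4B from 322 to 104 FPKM and TUBA1C from 140 to 63.5 FPKM. Tubulin genes have near-identical copies between which fragments may be split, so single tubulin values are uncertain. The smallest falls, of TUBG2 (log2 change -0.28) and TUBB2A (-0.39), lost their calls in limma's test without PBS replicate 1 or 2 or metformin replicate 2 or 3 for TUBG2 (adjusted p = 0.0693 to 0.0915), and without PBS replicate 2 or 3 or metformin replicate 1 or 3 for TUBB2A (adjusted p = 0.125 to 0.134). TUBA4A (-0.55, adjusted p = 0.0480), chosen after its values were seen, lost its limma call without any single library other than PBS replicate 1 (adjusted p = 0.0623 to 0.131). So 3 of the 9 falls depended on single libraries. The uncalled tubulin genes TUBA1A and TUBB3, chosen likewise, were called lower by limma without PBS replicate 1 (TUBA1A, -2.30, adjusted p = 0.00566) and without PBS replicate 3 (TUBB3, -1.65, adjusted p = 0.000371).

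Genes of the minus-end motor dynein were mixed. Of 18 tested dynein and dynactin genes 6 fell, 5 rose and 7 were not called, with a median log2 change of -0.12. Among all tested genes 25.2% were called lower and 31.0% higher, so such a mix is not particular to dynein. ACTR1A, the dynactin filament gene, fell from 20.8 ± 1.56 to 10.3 ± 4.39 FPKM, and its metformin libraries had 15.4, 7.76 and 7.83 FPKM. The dynein regulator NDEL1 rose from 2.71 to 4.71 FPKM, DYNC1I2 fell from 17.0 to 12.3 FPKM, and NDE1 fell from 5.65 to 3.97 FPKM. The call of NDE1 was lost without PBS replicate 1, metformin replicate 1 or metformin replicate 3 (limma adjusted p between 0.0676 and 0.0729). Among genes chosen after their values were seen, DCTN2, called higher, lost its call without PBS replicate 1 or metformin replicate 1 (adjusted p = 0.0696 and 0.0719), and DYNC1H1 was called lower by limma without PBS replicate 2 (adjusted p = 0.0169). DYNC1LI1 (log2 change 0.03) and DCTN4 (-0.06) were not called. Of 5 kinesin light chain and adaptor genes, which link transport kinesins to cargo, KLC2 rose from 15.1 to 20.7 FPKM, KLC3 fell from 4.36 to 3.18 FPKM and the other 3 were not called.

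**Figure D5:**
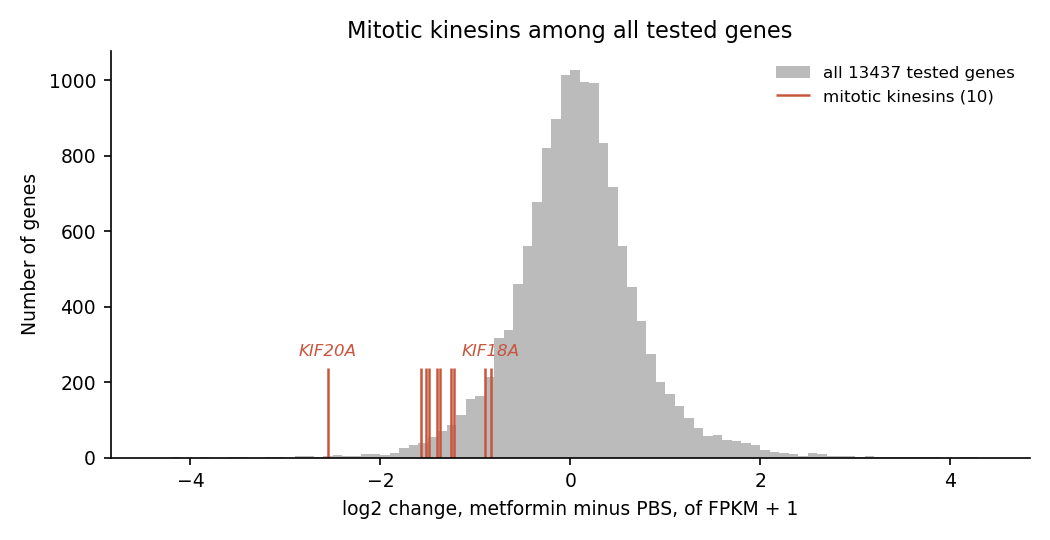
Distribution of the log2 change (metformin minus PBS, on FPKM + 1) over the 13437 tested genes, with the 10 mitotic kinesins marked. The members lie in the left tail between -2.55 and -0.84, and the median of all tested genes is 0.06.

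Genes known to regulate transcription in G2 and mitosis were mixed. Of 24 such genes 9 fell, 5 rose and 10 were not called, with a median log2 change of -0.08. The shares over all tested genes were 25.2% lower and 31.0% higher. MYBL2, the activating MuvB partner, fell from 42.4 to 13.3 FPKM, and E2F2, an activator of S-phase genes, fell from 2.48 to 0.317 FPKM. CDKN1A, which encodes the cell cycle inhibitor p21, rose from 4.21 ± 0.870 to 25.1 ± 1.72 FPKM, and the repressor gene E2F7 rose from 8.33 to 28.9 FPKM. The MuvB subunit LIN54 (log2 change 0.01) and RBL2 (-0.03), the DREAM pocket protein, were not called. FOXM1, an activator of mitotic genes chosen after its values were seen, had 14.0, 12.3 and 12.0 FPKM with PBS and 19.3, 8.43 and 9.45 FPKM with metformin. Its log2 change was -0.13 (limma adjusted p = 0.715), and without metformin replicate 1 it was -0.47 (adjusted p = 0.0102). In that library the 10 members summed to 75.3 FPKM, between the sums of the other metformin libraries. Also chosen after their values were seen, 3 uncalled genes were called by limma without a single library: E2F5 higher without PBS replicate 2 (adjusted p = 0.0441), NFYC higher without metformin replicate 3 (0.0126) and RBL1 lower without metformin replicate 2 (0.0201). The other NF-Y subunit genes, chosen likewise, were both called in all 6 libraries. NFYA rose from 10.3 to 24.7 FPKM (log2 change 1.19) and NFYB fell from 5.87 to 4.56 FPKM (-0.31).

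Outside all lists, the tested protein-coding genes whose centred log2(FPKM + 1) profiles over the 6 libraries were nearest to the members' mean profile were MTHFD1, a folate enzyme gene (Euclidean distance 0.0833), CBX5, which encodes a heterochromatin protein (0.107), the replicative helicase gene MCM7 (0.108), SYT12 (0.112) and the endoplasmic reticulum chaperone gene HSP90B1 (0.115). The nearest member, KIF2C, had a distance of 0.126 to a mean that includes it, and KIF20A was farthest at 1.40. MTHFD1 went from 24.5 to 8.79 FPKM and MCM7 from 78.6 to 29.4 FPKM. With 2 groups far apart, this measure mainly finds genes with the same log2 change, here between -1.44 and -1.36.

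In GENCODE 29 (GRCh38) the members lie on 9 chromosomes, and only KIF14 and KIF2C share one. They span chrX:70290090-70420832 (KIF4A, ENSG00000090889.11), chr10:92593286-92655395 (KIF11, ENSG00000138160.5), chr1:200551497-200620734 (KIF14, ENSG00000118193.11), chr3:44761717-44873376 (KIF15, ENSG00000163808.16) and chr11:28020620-28108308 (KIF18A, ENSG00000121621.6). The remaining members span chr17:44924709-44947711 (KIF18B, ENSG00000186185.13), chr5:138178719-138187715 (KIF20A, ENSG00000112984.11), chr15:69414246-69448427 (KIF23, ENSG00000137807.13), chr1:44739818-44767767 (KIF2C, ENSG00000142945.12) and chr6:33391536-33409924 (KIFC1, ENSG00000237649.7). Exons of 6 members share bases with a gene on the opposite strand, and no source used here says whether strand was counted. The shared stretch was 61 of 4668 exonic bases in KIF18A, with METTL15, which had 2.49 ± 0.118 FPKM with PBS and 6.10 ± 0.481 FPKM with metformin. KIF20A shares 68 bases with CDC23 and 132 with BRD8 of 3958, KIF4A shares 77 of 4533 with PDZD11, and KIFC1 shares 424 of 3345 with the pseudogene RPL12P1. KIF11, KIF14, KIF15 and KIF18B share none.

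The libraries were estimated to hold 7810000 to 8820000 fragments each, from the steps between low values. On that estimate KIF11 rested on 1230 to 1480 fragments per PBS library and 414 to 453 per metformin library, KIF20A on 700 to 846 and 97 to 120, and KIF15, the shallowest, on 224 to 305 and 84 to 93. All 12 epithelial and squamous markers reached a mean of 1 FPKM, with summed levels of 1456 to 1552 FPKM with PBS and 839 to 861 FPKM with metformin. Of these 12 markers 8 fell, 3 rose and 1 was not called. The basal keratin gene KRT14, with the lowest log2 change of all tested genes, fell from 246 ± 17.4 to 12.9 ± 0.275 FPKM, and the desmosomal cadherin gene DSG3 rose from 9.01 ± 0.235 to 25.1 ± 0.843 FPKM, both chosen after their values were seen. KRT17, chosen likewise, lost its limma call of a fall without PBS replicate 1 or 2 or metformin replicate 1 (adjusted p = 0.0549 to 0.0584). Of 22 markers of fibroblasts, leukocytes and endothelium 4 reached it (COL1A1, CD68, CD14 and CDH5), PDGFRA, DCN and KDR were listed at 0 in every library, and the summed levels were 1.54 to 2.34, 5.92 to 7.46 and 6.01 to 7.06 FPKM with PBS and 2.51 to 2.74, 4.54 to 6.57 and 2.11 to 2.32 FPKM with metformin. Whether these levels have a part in the members' falls was not tested.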

How the data were processed

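Messenger RNA of 6 CAL27 libraries, 3 with PBS and 3 with metformin, was sequenced, with reads of 150 bp per the series design. Per the file headers, each library's deposited table holds FPKM for every listed gene. The genome build was GRCh38, per the submitters' processing notes. For aligner, quantification tool and annotation, the entry is: not given in the sources used here. Symbols came from GENCODE 29, which named 57980 of 58243 identifiers, and 27781 genes were listed at 0 throughout. FPKM is relative to the mapped total of a library, so each value also depends on other genes.

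Genes averaging 1 FPKM or more over the 6 libraries were tested on log2(FPKM + 1) with limma 3.58.1 in R 4.3.3 (intensity trend, group as the only term, two-sided), with Benjamini-Hochberg adjustment over 13437 genes and a threshold of 0.05. On simulated data with 50 genes changed at each size, 66% were called at a log2 change of 0.585, 76% at 1, 88% at 1.5 and 94% at 2, and 7 of 13237 unchanged genes were called. Only 200 genes were changed there, all with a mean log2(FPKM + 1) above 2. In the real comparison 7549 genes were called, so these rates need not hold for it. The labels do not state whether libraries of a group are separate cultures, so the p-values reflect only how much these libraries vary, possibly for technical reasons. No pair of libraries shared more than 2 equal values among tested genes. Depth was estimated from the steps of low values and GENCODE transcript lengths, and whole reads were not recovered.

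The members and the 14 gene lists were chosen with earlier results of these data known. The text names all members, and from each of the 10 lists that are not cell type markers every called gene where 6 or fewer were called, otherwise the 4 with the largest changes, with up to 2 tested genes of smallest change. It also names the 5 genes nearest in profile, and any further gene is marked as chosen with its values in view. Promoter sequences were RefSeq's (GRCh38.p14). Alternatives were other pseudocounts, level filters and scalings, other limma settings, a replicate block, protein-coding genes alone and each library left out.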

Additional observations from a re-analysis of the deposited data

How the results depend on the processing

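Across 18 alternatives the members were tested 179 times (KIF15 does not reach a mean of 5 FPKM, which leaves 9 members under that filter), and they were lower and called by limma in 179 of 179, with an adjusted p of at most 0.00183. KIF20A ranged from a log2 change of -2.82 to -2.49 and KIF18A from -0.93 to -0.81. The members' median log2 change was -1.53 at a pseudocount of 0.1 and -1.56 at 0.01, since a smaller pseudocount damps low genes less. With a mean of at least 5 FPKM, where fewer genes are tested, 4738 genes were called in all and 2401 higher, against 7549 and 4169. The share of calls that were lower was 44.8%, and 42.4% to 51.1% across alternatives, the highest with quantile normalization. Leaving out each library in turn gave 6663 to 6886 calls and a member median of -1.44 to -1.34. Of 119 other called genes, in the lists or nearest in profile, 8 lost the call under some alternative. No pairing by replicate number was seen: deviations of same-numbered libraries correlated at -0.000355, 0.0304 and -0.0105, and not every library correlated best with its own number. With 3 libraries a group, a weak pairing could be missed. With the replicate block 7139 genes were called, among them 10 of 10 members (largest adjusted p 0.00183). With 1 cell line, 3 libraries a group and FPKM without counts, depth is an estimate, and KIF15 in the metformin libraries rests on the fewest fragments.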
